A study of Bos taurus with 90 samples.

Results

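The genes described here were the 100 liver genes whose mean level was furthest below both concentrate diets while steers ate grass, in Charolais (CH) and in Holstein-Friesian (HF) steers alike. Out of 24616 genes in the count table they were chosen by their mean levels on grass and on concentrate, that is, by the diet contrast itself. Of those genes, 8987 had a mean of at least 5 CPM (reads of a gene scaled to a library total of 1000000) over 90 libraries, and 5584 of these had means under the first and the second concentrate diet within 0.4 of each other in each breed on the scale log2(CPM + 0.5). The grass mean was the lowest of the 3 diet means in both breeds for 524 genes, and it was the highest in both breeds for 646. The score of a gene in a breed was the smaller of the 2 concentrate means minus the grass mean, and the 100 genes with the largest smaller-of-both-breeds score were kept. Because the values that chose them were the diet means, all diet differences below are given as a description with no test.

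Liver biopsies came from steers whose residual feed intake (RFI, the feed an animal eats beyond what its weight and growth predict) placed them in a low RFI, feed efficient, or a high RFI group. Steers were fed in 3 successive phases: a first high concentrate phase (H1), a zero-grazed grass phase (ZG), in which cut fresh grass was brought to the animals, and a finishing high concentrate phase (H2). RFI ranking was done within breed and anew in each phase. A steer could thus be low RFI in 1 phase and high RFI in another. The concentrate was rolled barley at 860 g/kg, with soya bean meal and molasses at 60 g/kg each, minerals and vitamins, and a limited allowance of grass silage in both H1 and H2. The CH libraries comprised 20 in H1 (9 low and 11 high RFI), 6 in ZG (3 and 3) and 17 in H2 (9 and 8), and the HF libraries 16 in H1 (7 and 9), 18 in ZG (10 and 8) and 13 in H2 (5 and 8). Every steer met the diets in the same order, so diet, age and season cannot be told apart in any grass comparison. Libraries held 9097695 to 63621304 counted reads with a median of 18858293, and 15 of 73 steer numbers had more than 1 library. One steer number was labelled CH in H1 and HF in H2, and counts that its libraries change are given also without them where they were fitted. FGA and FGG, which encode fibrinogen chains secreted by hepatocytes, had mean levels of 13032 and 13790 CPM and were never below 6806 and 5667 CPM in any library. Among 14 marker lists for hepatocytes, blood and other cell types, only 1 gene, the adipose gene CIDEC, could be matched to an identifier, so the cell makeup of the biopsies was not checked further.

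The liver receives the volatile fatty acids of rumen fermentation through the portal vein, and the proportions of these acids differ between cereal and forage diets. It makes glucose from propionate, exports lipoproteins, disposes of nitrogen as urea and renews its cells slowly. RNA from a biopsy mixes hepatocytes with endothelial, stellate, bile duct and immune cells, so fewer cells of a type and less RNA per cell cannot be told apart. The files identify genes by Ensembl number. Gene symbols were known for 7 of the 100 genes, from the study's list of genes called for RFI in these same livers, and the other 93 are referred to by rank of score, with the identifier only for the few on which a result turns. None of the 7 stood in any of 30 pathway lists prepared for liver, of which the best matched had identifiers for 23.5% of its genes, so no pathway could be described through its members.

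The scores were modest. They ran from 0.159 to 0.88 on the log2 scale with a median of 0.209, which is a grass mean lower by 1.12-fold to 1.84-fold with a median of 1.16-fold. Only 5 genes had a score over 0.5, and 43 had one under 0.2. CH gave the smaller score for 71 genes and HF for 29, and the median score was 0.228 in CH and 0.328 in HF. The highest ranked named genes were HIST1H2BD, a core histone H2B gene, at rank 3 with a score of 0.63, and the uncharacterised open reading frame C10H14orf105 at rank 4 with 0.60. TDRD10, which encodes a tudor domain protein, followed at rank 7 with 0.47, and KIF23, a kinesin motor that works in cytokinesis, at rank 16 with 0.30. STRIP2 (striatin interacting protein), SGPL1 (sphingosine-1-phosphate lyase) and S100A14 (a small protein of the calcium-binding S100 family) lay lower, at ranks 39, 73 and 98 with scores of 0.23, 0.18 and 0.16. With only 6 CH grass libraries, 1 of them could decide such a score. Without high RFI replicate 3 the score of KIF23 was 0.10, that of STRIP2 0.09 and that of SGPL1 0.07. Without low RFI replicate 2 KIF23 had 0.51 and SGPL1 0.30, and without low RFI replicate 3 S100A14 had 0.06, TDRD10 0.30 and ENSBTAG00000017042, the top ranked gene, 0.56.

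At the margin of the choice the scores changed little. The members at ranks 98 to 100 had scores of 0.160, 0.159 and 0.159, and the genes just outside, at ranks 101 to 103, had 0.152, 0.150 and 0.147. The last of these was GPD1, the cytosolic glycerol-3-phosphate dehydrogenase that links glycolysis to glycerolipid synthesis, with a score of 0.15 in CH and 0.57 in HF.

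**Figure D1:**
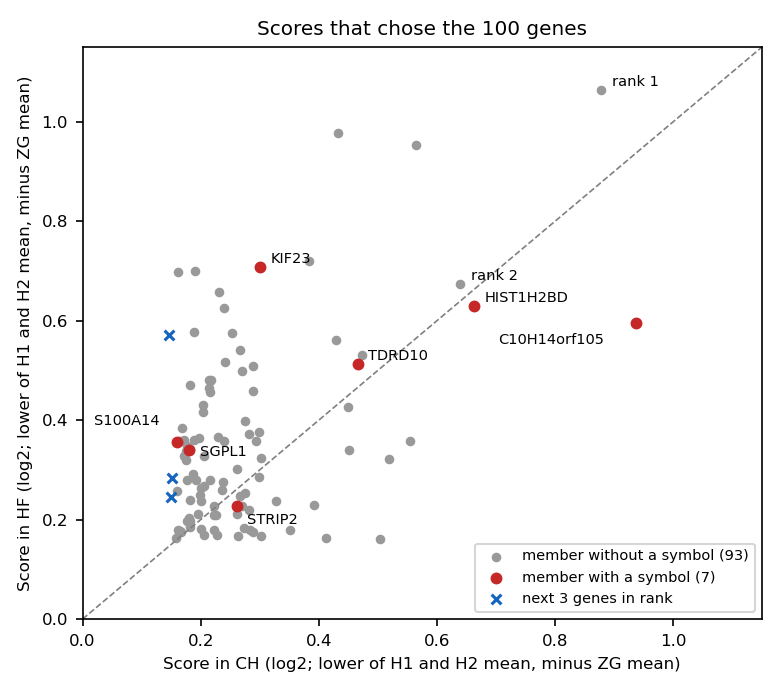
Score of each gene in CH (x axis) and in HF (y axis), both in log2 units, for the 100 members (dots, the 7 with a symbol in red) and the next 3 genes in rank (blue crosses); the dashed line marks equal scores. Most points lie above the line, with the smaller score in CH for 71 of 100 genes, 64 genes lie at 0.4 or less in both breeds, and 31 exceed 0.4 in HF and 15 in CH.

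The size of these differences depended on how libraries were made comparable. Under scaling by library total, the scale the choice was made on, the median of all 8987 genes was itself not level between diets: grass minus concentrate was -0.02 in CH against H1, 0.19 in CH against H2, -0.22 in HF against H1 and -0.11 in HF against H2. The medians of the 100 members for the same contrasts were -0.28, -0.27, -0.37 and -0.39, and relative to the median of all genes they were -0.26, -0.46, -0.15 and -0.28. With trimmed mean of M-values (TMM) scaling, which sets most genes level between libraries, the members' medians became -0.22, -0.46, -0.09 and -0.29. Under TMM 69 of the 100 genes still had their lowest mean on grass in both breeds (8.65% of all 8987 genes did), and each of the other 31 lost this in HF, where grass was no longer below H1. Relative to the median of all genes, 85 members kept the pattern, as did 10.7% of all 8987 genes. Had the choice been made under TMM, 28 of the same 100 genes would have been taken, among them ENSBTAG00000008353, HIST1H2BD, KIF23 and S100A14. The top ranked ENSBTAG00000017042 and the named C10H14orf105, TDRD10, STRIP2 and SGPL1 would not have been taken. Of the 72 that would not, 31 were no longer lowest, 10 had H1 and H2 means too far apart and 31 ranked beyond 100. The share of reads taken by the 10 genes with the highest mean CPM over all libraries moved with the groups. This share was 26.6% ± 2.8 (SD, n = 6) in CH grass, 29.9% ± 4.0 (n = 18) in HF grass, 26.2% ± 1.6 (n = 20) in CH H1 and 26.0% ± 1.7 (n = 16) in HF H1. It was 30.2% ± 3.3 (n = 17) in CH H2 and 29.0% ± 2.2 (n = 13) in HF H2, and its part in the diet differences was not tested.

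**Figure D2:**
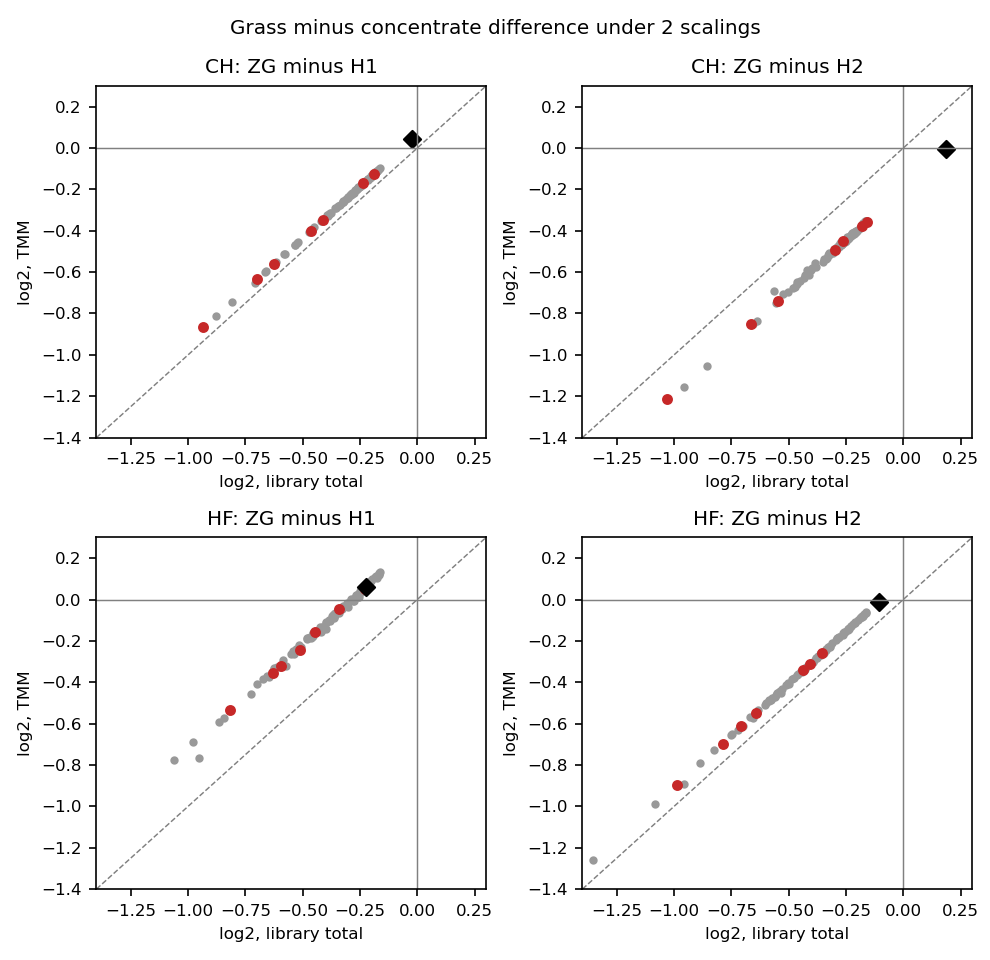
Grass minus concentrate difference of each member in log2 units, scaled by library total (x axis) and by TMM (y axis), with 1 panel for each breed and concentrate phase; red dots are the 7 named genes, the black diamond is the median of all 8987 genes, and the dashed line marks equal values. In HF against H1 the points lie above the dashed line and 31 of them lie above 0 under TMM.

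The member with the largest score, ENSBTAG00000017042, varied widely from steer to steer. In CH its lowest, median and highest levels were 31.6, 78.2 and 152 CPM in H1, 12.8, 41.4 and 72.2 CPM on grass, and 7.03, 73.8 and 267 CPM in H2. In HF they were 23.3, 61.2 and 233 CPM in H1, 2.01, 32.8 and 149 CPM on grass, and 28.0, 86.5 and 189 CPM in H2. The grass medians were the lowest in both breeds, but grass and concentrate libraries overlapped throughout, and 1 HF grass library exceeded most concentrate libraries. Its differences from H1 and H2 were -0.88 and -0.96 in CH and -1.06 and -1.35 in HF, against a spread between libraries of the same breed and diet of 1.04 (SD, log2). Under TMM the same 4 differences were -0.81, -1.16, -0.78 and -1.26.

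The second ranked member, ENSBTAG00000008353, was steadier. Its lowest, median and highest levels in CH were 21.8, 34.2 and 57.9 CPM in H1, 13.97, 19.4 and 32.5 CPM on grass, and 20.3, 31.9 and 43.0 CPM in H2. The HF libraries had 18.8, 33.8 and 70.8 CPM in H1, 11.3, 23.1 and 42.0 CPM on grass, and 24.7, 38.4 and 62.5 CPM in H2. The grass medians thus lay near the lowest concentrate libraries, with some overlap in each breed. Grass was below H1 and H2 by -0.81 and -0.64 in CH and by -0.67 and -0.75 in HF on the log2 scale, and by -0.74, -0.84, -0.39 and -0.65 under TMM.

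HIST1H2BD encodes histone H2B, a core protein of the nucleosome. The library preparation was for mRNA, replication-dependent histone transcripts mostly lack a poly(A) tail, and histone H2B genes are near-identical copies that share reads, so its level is uncertain. Its lowest, median and highest levels in CH were 5.11, 7.88 and 13.7 CPM in H1, 3.28, 4.70 and 6.56 CPM on grass, and 5.01, 7.81 and 10.4 CPM in H2. Among HF steers the figures were 5.26, 9.80 and 16.3 CPM in H1, 3.52, 6.31 and 9.51 CPM on grass, and 5.38, 8.30 and 23.0 CPM in H2. All 6 CH grass libraries were below the median of the CH concentrate libraries, although the groups overlapped. The 4 differences were close to each other, at -0.70 and -0.66 in CH and -0.63 and -0.64 in HF, and TMM gave -0.63, -0.85, -0.35 and -0.55.

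KIF23 encodes a motor of the central spindle that dividing cells need to separate. In CH its lowest, median and highest levels were 9.95, 23.3 and 36.2 CPM in H1, 6.67, 14.1 and 29.9 CPM on grass, and 4.48, 19.6 and 48.5 CPM in H2. In HF they were 13.5, 21.2 and 45.2 CPM in H1, 4.31, 12.03 and 19.9 CPM on grass, and 9.07, 19.9 and 34.1 CPM in H2. Every one of the 18 HF grass libraries was below the median of the HF concentrate libraries, whereas in CH the grass libraries spanned much of the concentrate range. Grass was below H1 and H2 by -0.63 and -0.30 in CH and by -0.82 and -0.71 in HF, and by -0.56, -0.49, -0.53 and -0.61 under TMM.

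C10H14orf105 had few reads for a member. Its lowest, median and highest levels in CH were 2.98, 8.54 and 13.7 CPM in H1, 1.20, 4.11 and 8.17 CPM on grass, and 2.98, 8.46 and 16.3 CPM in H2. The HF libraries had 3.02, 7.64 and 12.2 CPM in H1, 1.55, 5.09 and 9.50 CPM on grass, and 5.77, 10.6 and 14.1 CPM in H2. All CH grass libraries lay below the CH concentrate median. The differences were -0.94 and -1.03 in CH and -0.60 and -0.99 in HF, and under TMM -0.87, -1.21, -0.32 and -0.90.

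TDRD10 encodes a tudor domain protein. In CH its lowest, median and highest levels were 4.72, 15.5 and 22.4 CPM in H1, 5.57, 10.1 and 19.7 CPM on grass, and 8.12, 15.3 and 25.5 CPM in H2. Among HF steers the figures were 2.69, 12.7 and 22.1 CPM in H1, 0.754, 7.51 and 18.2 CPM on grass, and 2.75, 14.1 and 20.3 CPM in H2. The groups overlapped over nearly their whole range. The differences were -0.47 and -0.55 in CH and -0.51 and -0.79 in HF, against a within-group SD of 0.75, and under TMM they were -0.40, -0.74, -0.24 and -0.70.

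SGPL1, the enzyme that breaks down sphingosine-1-phosphate irreversibly, was the most abundant of the named genes in reads. Its lowest, median and highest levels in CH were 112, 143 and 346 CPM in H1, 90.9, 127 and 197 CPM on grass, and 77.3, 138 and 316 CPM in H2. In HF they were 87.3, 172 and 326 CPM in H1, 78.7, 123 and 301 CPM on grass, and 112, 183 and 273 CPM in H2. The groups overlapped in both breeds, with grass medians lower than either concentrate median. The differences were -0.19 and -0.18 in CH and -0.34 and -0.44 in HF, and under TMM -0.12, -0.38, -0.05 and -0.34.

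S100A14 belongs to the EF-hand S100 proteins. Its lowest, median and highest levels in CH were 28.8, 41.8 and 51.1 CPM in H1, 24.2, 35.9 and 41.3 CPM on grass, and 21.9, 38.9 and 58.5 CPM in H2. The HF libraries had 32.4, 38.9 and 49.7 CPM in H1, 14.2, 31.0 and 52.9 CPM on grass, and 19.7, 37.1 and 50.0 CPM in H2. The lowest HF libraries were on grass, but so was the highest. The differences were -0.23 and -0.16 in CH and -0.45 and -0.36 in HF, and under TMM -0.17, -0.36, -0.16 and -0.26.

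STRIP2, a partner of the striatin phosphatase complex, had the least stable pattern of the named genes. In CH its lowest, median and highest levels were 3.95, 14.5 and 24.3 CPM in H1, 5.24, 11.1 and 15.2 CPM on grass, and 4.68, 14.3 and 31.1 CPM in H2. Among HF steers the figures were 4.63, 12.9 and 27.3 CPM in H1, 2.90, 11.5 and 17.0 CPM on grass, and 7.24, 12.5 and 30.4 CPM in H2. The HF medians lay close together. Grass was below H1 and H2 by -0.41 and -0.26 in CH and by -0.23 and -0.41 in HF, but under TMM the difference of HF grass from H1 was 0.05, beside -0.35, -0.45 and -0.31 for the other contrasts.

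**Figure D3:**
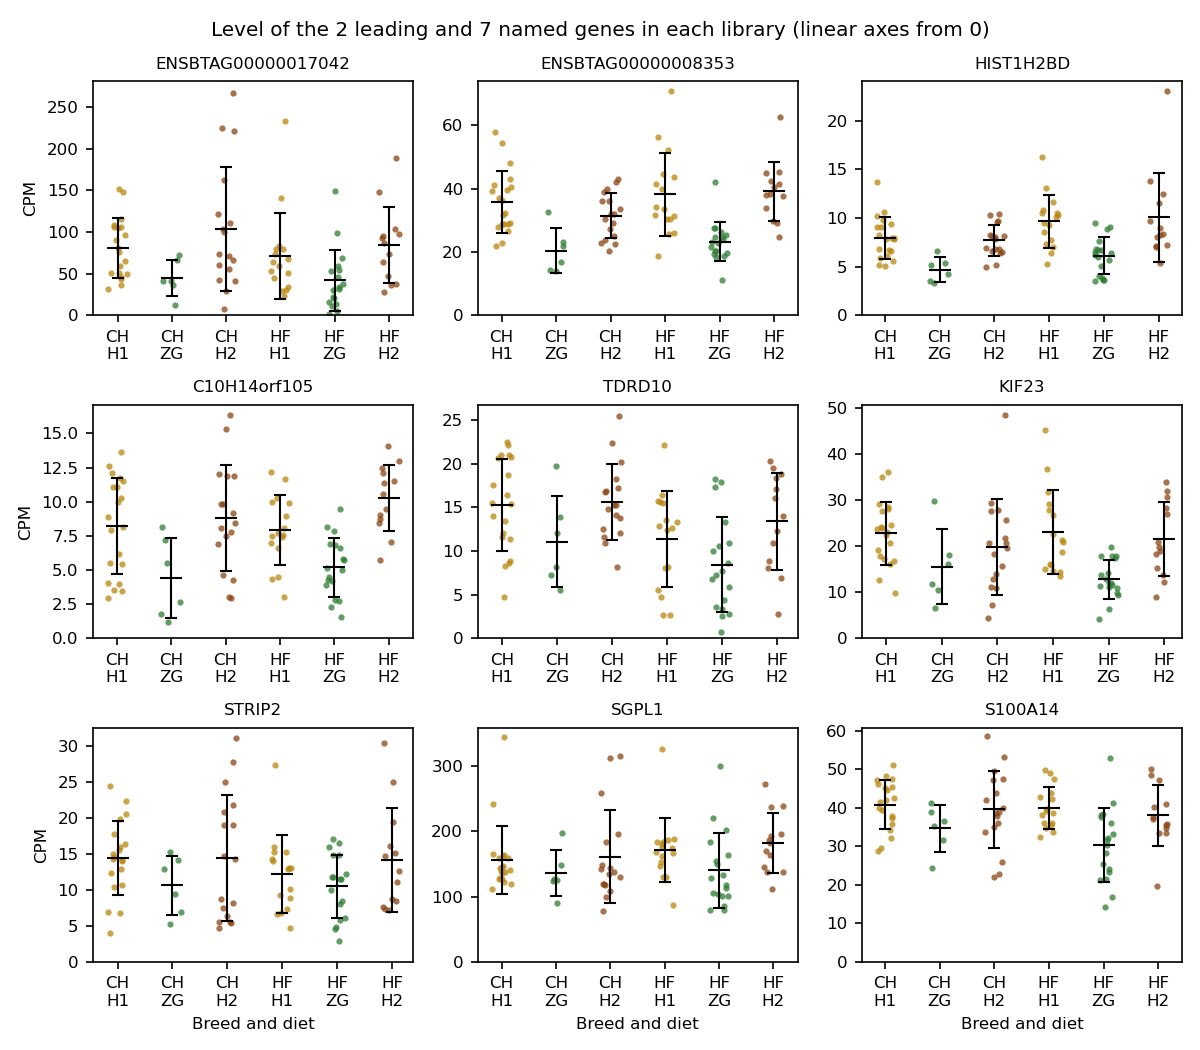
Level in CPM (y axes, linear from 0) of the 2 leading and the 7 named members in every library, by breed and diet (x axes); points are libraries, and the horizontal mark and bars are the mean and SD of each group. The grass mean is the lowest of its breed in every panel, and grass and concentrate points overlap in every panel.

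Averaged over the 100 genes, the level per library on the log2(CPM + 0.5) scale was 4.89 ± 0.11 (SD, n = 20) in CH H1, 4.55 ± 0.09 (n = 6) on CH grass and 4.87 ± 0.18 (n = 17) in CH H2. In HF it was 4.93 ± 0.12 (n = 16) in H1, 4.52 ± 0.14 (n = 18) on grass and 4.96 ± 0.10 (n = 13) in H2. Under library total scaling 1 of 29 HF concentrate libraries lay below the highest HF grass library, and 5 of 37 CH concentrate libraries lay below the highest CH grass library. The lowest CH concentrate library, a low RFI steer in H2, stood apart at 4.36, and under TMM it was at 4.74. Under TMM the means were 4.78, 4.51 and 5.02 in CH and 4.77, 4.64 and 4.98 in HF for H1, grass and H2, and 8 of 29 HF and 3 of 37 CH concentrate libraries lay below the highest grass library of their breed.

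**Figure D4:**
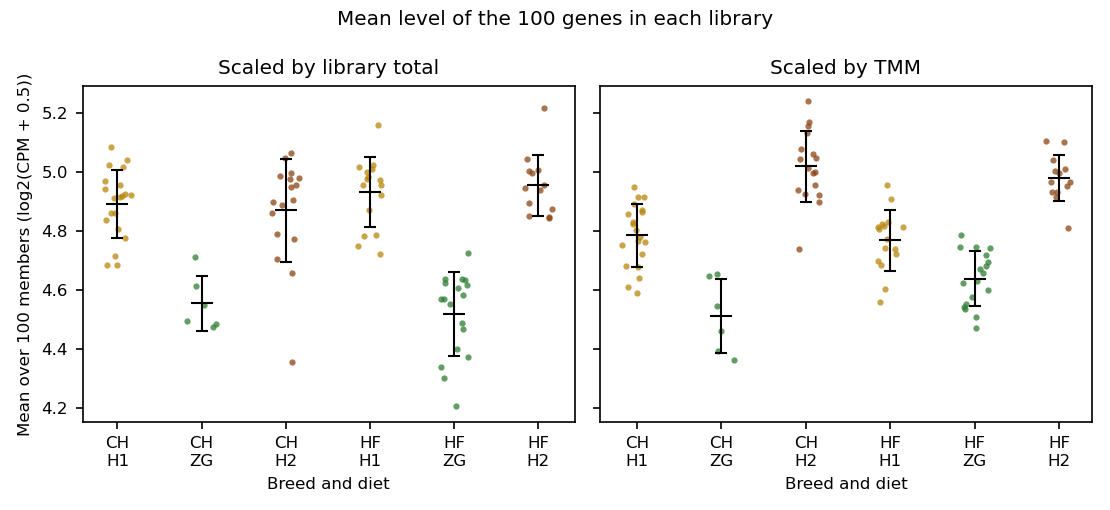
Mean of the 100 members in each library on the log2(CPM + 0.5) scale (y axis) by breed and diet (x axis), scaled by library total (left) and by TMM (right); points are libraries, and the mark and bars are the group mean and SD. Grass is lowest in each breed in both panels, with group means of 4.55 and 4.52 on the left, and in the right panel H2 lies above H1 in both breeds.

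For single genes the separation was never complete. No member had every grass library below every concentrate library, in CH (0% of 8987 genes did) or in HF (0%). Every grass library was below the concentrate median for 26 members in CH, against 2.44% of all genes, and for 15 members in HF, against 2.75%. The choice of members used this contrast, so these counts are a description. In the median member, 83.3% of CH grass libraries and 88.9% of HF grass libraries were below the concentrate median, where the median over all genes was 50% and 66.7%.

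For 8 steers there was both a grass library and at least 1 concentrate library, giving 10 grass and concentrate pairs from the same animal. These libraries also entered the choice. Scaled by library total, between 66 and 90 of the 100 members were lower on grass in a pair, with a median over pairs of -0.31 for the median member, while the share over all 8987 genes ran from 34.9% to 80.9%. Under TMM 51 to 90 members were lower, beside 41.0% to 51.8% of all genes, and the median over pairs was -0.15. Under library totals, in all 10 pairs the median difference of the members was below that of all genes. HIST1H2BD, C10H14orf105 and KIF23 were lower on grass in 10 of 10 pairs, with median differences of -0.60, -1.03 and -0.63. TDRD10 and ENSBTAG00000008353 were lower in 9 pairs, SGPL1 and S100A14 in 7, and STRIP2 and ENSBTAG00000017042 in 6.

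In level and spread the members were close to the other liver genes. Their median level was 21.2 CPM, beside 20.2 CPM over all 8987 genes, and ranged from 5.43 to 3939 CPM. Their median SD within breed and diet was 0.36 on the log2 scale, from 0.20 to 1.63, beside 0.32 over all genes. Only 6 members had a score larger than that SD. After removal of the breed and diet means, the median correlation between pairs of members over the 90 libraries was 0.10, beside 0.11 over all genes. Under TMM it was 0.06 beside 0.003. Correlations over 0.3 were rarer among members, at 17.8% of their pairs beside 31.8% of all pairs, and under TMM at 15.7% beside 27.2%. These correlations share libraries and sequencing depth and are weak. Among the 21 pairs of named genes the highest was 0.31, between KIF23 and SGPL1, and the lowest was -0.29, between C10H14orf105 and S100A14.

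The contrast of the breeds within a diet was not what the genes were ranked on, but the smaller score of both breeds was built from the same group means, so the breed test is not independent of the choice. On grass CH rests on 6 libraries. There the members' median log2 fold change of CH over HF, fitted under TMM, was -0.10, beside 0.02 over all genes. Of the 100 members 26 were above 0, and the share of all genes above 0 was not counted. The direction depended on scaling. The members' mean log2 level on grass was 4.55 in CH and 4.52 in HF by library total, but 4.51 and 4.64 under TMM. Breeds were compared with edgeR's quasi-likelihood test across all genes, with RFI group as a covariate and a threshold of 0.1 on the Benjamini-Hochberg adjusted P. In H1, 2 members were upregulated in CH (1.18% of the 13207 genes tested) and 1 was downregulated (3.08%). An unadjusted P below 0.05 was reached by 9 members (14.7%), or by 6 (13.7%) without the steer of both breed labels. The members' share of calls was near that of all genes. On grass 0 members were called in either direction, beside 0.0152% of genes higher and 0% lower in CH, 8 had an unadjusted P below 0.05 (2.82%), and DESeq2 also called 0. In H2 again 0 members were called, beside 0.291% of genes higher and 0.299% lower in CH, 12 had an unadjusted P below 0.05 (7.01%), and DESeq2 called 0.

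The 3 members called in H1 were named after their values were seen. ENSBTAG00000035064, at rank 5, had lowest, median and highest levels of 0.284, 1.92 and 8.71 CPM in 20 CH libraries and 0.0593, 5.89 and 31.4 CPM in 16 HF libraries. Its log2 fold change of CH over HF was -1.69 ± 0.53 (SE, edgeR adjusted P = 0.0858). Its within-group SD of 1.63 was the largest among the 100 members. Its mean over the 90 libraries, 5.43 CPM, was the lowest among them and just past the minimum of 5 CPM. In H1 its mean was 2.71 CPM in CH and 9.61 CPM in HF. The CH mean was under 5 CPM in every diet and the HF mean above it, so the gene passed that minimum through its HF libraries. Its call as lower in CH is therefore not independent of the filter. ENSBTAG00000003943, at rank 27, had levels of 4.15, 6.20 and 9.91 CPM in CH and 3.63, 4.88 and 8.66 CPM in HF, and was higher in CH by 0.35 ± 0.11 (edgeR adjusted P = 0.0870). ENSBTAG00000017830, at rank 52, had 22.7, 39.0 and 49.9 CPM in CH and 18.4, 26.1 and 55.5 CPM in HF, and was higher in CH by 0.40 ± 0.12 (edgeR adjusted P = 0.0718). The breeds overlapped for each of the 3. On grass and in H2 the log2 fold changes of CH over HF were 0.07 and 0.12 for ENSBTAG00000003943. They were 0.07 and 0.09 for ENSBTAG00000017830, and -2.23 and -1.51 for ENSBTAG00000035064. Without the steer that carries both breed labels, 0 of the 3 passed by edgeR, with adjusted P of 0.116, 0.130 and 0.111, and DESeq2 gave them 0.0603, 0.0983 and 0.0701.

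None of the 7 named genes was called between breeds. HIST1H2BD was lower in CH in each diet, by -0.24 ± 0.13 in H1, -0.52 ± 0.20 on grass and -0.19 ± 0.16 in H2, with edgeR adjusted P of 0.409, 0.999 and 1.00. TDRD10 was higher in CH in each diet, by 0.47 ± 0.24, 0.20 ± 0.43 and 0.38 ± 0.19, with edgeR adjusted P of 0.353, 0.999 and 0.737. KIF23 was near level between breeds, at 0.03 ± 0.15, 0.08 ± 0.26 and 0.01 ± 0.25. None of these passed the threshold.

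Low and high RFI steers were compared within each breed and diet, and RFI group was no part of the rule that chose the 100 genes. The 7 genes with symbols were, however, known by name only because the study had called them for RFI in these livers, so their RFI values are not independent evidence. By edgeR 0 members were called in each of the 6 comparisons. The share of all genes called was 0.0155% in CH H1 and 0% in the CH ZG, CH H2, HF H1, HF ZG and HF H2 comparisons. An unadjusted P below 0.05 was reached by 22 members in CH H1 (11.7% of all genes), 14 in CH ZG (13.5%), 3 in CH H2 (2.86%), 4 in HF H1 (6.63%), 4 in HF ZG (2.09%) and 9 in HF H2 (3.47%). In HF H2 the count was 4 (2.02%) without the steer of both breed labels. With the breeds joined and breed as a covariate, 0 members were called in H1 (0.0227% of genes), in ZG (0%) or in H2 (0%), and 14 (9.11%), 9 (1.94%) and 8 (4.1%) had an unadjusted P below 0.05. Without the steer of both breed labels these counts were 13 in H1 (8.39%) and 6 in H2 (3.22%).

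In CH steers in H1 the members leaned to lower levels in low RFI animals. All 22 members with an unadjusted P below 0.05 were lower in low RFI, where 5.71% of all genes were, and 80 of the 100 members had a log2 fold change below 0, where 48.7% of all genes did. Their median log2 fold change of low over high RFI was -0.15, beside 0.005 over all genes. Without the steer of both breed labels, 18 members had an unadjusted P below 0.05 (10.4% of all genes), and 1 of them was higher in low RFI. In HF in H1 the median was -0.03 and 4 members had an unadjusted P below 0.05. The difference between the breeds in this respect was not tested. HIST1H2BD had lowest, median and highest levels of 5.12, 6.66 and 9.34 CPM in 9 low RFI and 5.11, 9.06 and 13.7 CPM in 11 high RFI CH steers, which differed by -0.51 ± 0.15 (log2, low over high). SGPL1 had 112, 129 and 159 CPM in low RFI and 122, 159 and 346 CPM in high RFI steers, a difference of -0.49 ± 0.15. S100A14 had 28.8, 37.2 and 46.1 CPM in low RFI and 35.8, 45.1 and 51.1 CPM in high RFI steers, a difference of -0.35 ± 0.09. The edgeR adjusted P were 0.256, 0.256 and 0.183. DESeq2's Wald test, which the study used, called these 3 members lower (0.558% of genes) at adjusted P of 0.0920, 0.0978 and 0.0347. Their symbols came from the study's own RFI calls, so these calls are not independent evidence. Without the steer of both breed labels the log2 differences were -0.50, -0.52 and -0.35 with edgeR adjusted P of 0.352, 0.346 and 0.304, and by DESeq2 the adjusted P were 0.168, 0.120 and 0.0830. With the breeds joined in H1, DESeq2's own filter left 1597 genes and 24 members with an adjusted P, S100A14 not among them, and it called 95 of those genes (5.95%) and 2 of those 24 members as lower in low RFI.

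On grass, with 3 CH libraries of each RFI group, C10H14orf105, KIF23, TDRD10 and STRIP2 had their widest RFI differences. C10H14orf105 stood at 5.53, 7.23 and 8.17 CPM in the low RFI steers and 1.20, 1.82 and 2.69 CPM in the high RFI steers, and low over high was 1.95 ± 0.37 (log2, SE). KIF23 stood at 16.3, 18.1 and 29.9 CPM in low RFI and 6.67, 10.5 and 11.9 CPM in high RFI, with a log2 fold change of 1.23 ± 0.30. For both genes the low RFI libraries were all above the high RFI libraries, and the mean on CH grass was 6.98 CPM in low and 1.90 CPM in high RFI steers for C10H14orf105, and 21.4 and 9.68 CPM for KIF23. STRIP2 stood at 12.8, 14.1 and 15.2 CPM in low RFI and 5.24, 6.85 and 9.43 CPM in high RFI, with a log2 fold change of 1.06 ± 0.24. TDRD10 went the other way, with 5.57, 7.24 and 8.13 CPM in low RFI and 12.1, 13.8 and 19.7 CPM in high RFI and a log2 fold change of -1.07 ± 0.26. By edgeR each of these 4 had an adjusted P of 0.365. SGPL1 was also higher in low RFI on CH grass, by 0.54 ± 0.21 (edgeR adjusted P = 0.365), whereas in CH H1 it differed by -0.49.

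Within the low RFI libraries alone the CH pattern did not hold for 3 named genes. Because RFI groups were set anew in each phase, the low RFI groups of the 3 diets were not the same set of steers. SGPL1 averaged 157 ± 36.5 CPM (SD, n = 3) on grass there, beside 133 ± 14.5 (n = 9) in H1 and 151 ± 80.3 (n = 9) in H2. KIF23 averaged 21.4 CPM on grass and 18.2 CPM in H2, and STRIP2 14.1 CPM on grass and 13.2 CPM in H2. In the 3 high RFI grass libraries the means were 114 CPM for SGPL1, 9.68 CPM for KIF23 and 7.17 CPM for STRIP2, each below both concentrate means of high RFI CH steers.

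With 3 steers against 3 such separations were common. Low RFI libraries were all above the high RFI libraries for 9 members, where 10.1% of 13025 genes were, and all below for 10 members, where 16.3% were. DESeq2 called C10H14orf105, KIF23 and STRIP2 higher in low RFI (0.303% of genes) at adjusted P of 0.00285, 0.0499 and 0.0354, and TDRD10 lower (0.956%) at 0.0502. The symbols of these genes came from the study's own RFI calls in these livers, so the differences and calls are not independent evidence. In HF on grass, with 10 low and 8 high RFI libraries, the same 4 genes had log2 fold changes of -0.12 ± 0.33, -0.01 ± 0.26, -0.03 ± 0.34 and 0.04 ± 0.46 in the order given. The difference between the breeds was not tested.

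**Figure D5:**
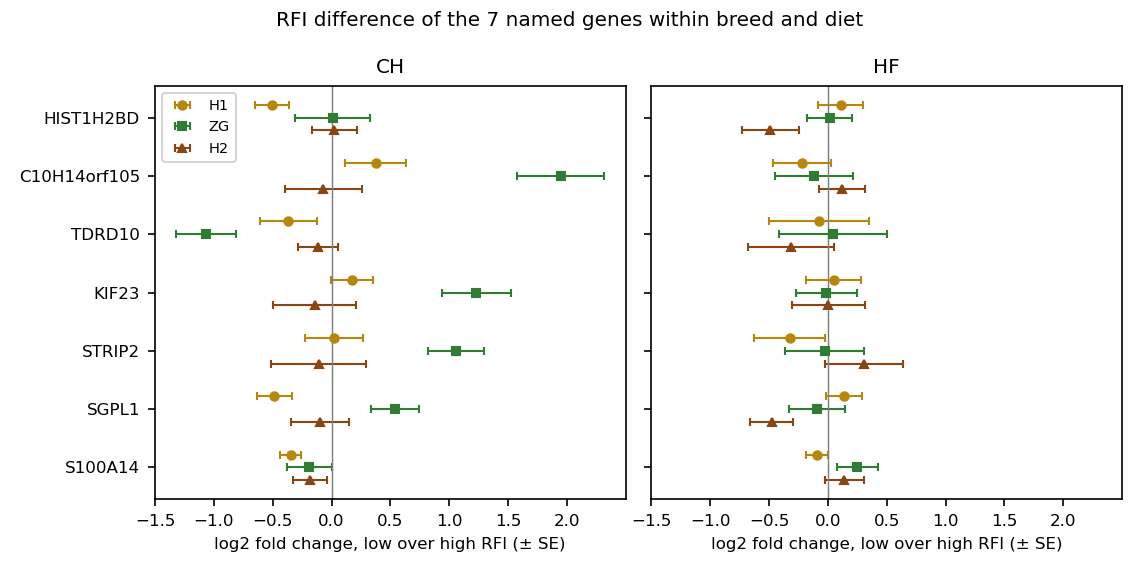
Log2 fold change of low over high RFI with its standard error (x axis) for the 7 named members (y axis), in CH (left) and HF (right), by diet; the scale is the same in both panels. The 2 values furthest from 0 are CH grass squares of C10H14orf105 at 1.95 and KIF23 at 1.23. HIST1H2BD and S100A14 lie further from 0 in CH H1 (-0.51 and -0.35) than on CH grass (0.01 and -0.19). SGPL1 lies below 0 in CH H1 (-0.49) and above 0 on CH grass (0.54). No value passed the adjusted P threshold of 0.1 by edgeR.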

How the data were processed

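Single-end mRNA libraries from liver biopsies were read as the deposited table of raw read counts per gene, which the authors made with STAR on the UMD3.1 assembly and Ensembl annotation after quality trimming; the strand setting of the counting is not given in the sources used here, and the labels name STAR 2.5.3a, FastQC 0.11.5 and CASAVA 1.8. The table held no columns of other samples. Groups came from the labels' breed, diet and RFI status. Members were chosen on log2(CPM + 0.5) with the library total as depth. The members and the gene lists were chosen with earlier results of these data known.

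Breed and RFI contrasts were fitted with edgeR 4.0.16 (filterByExpr, TMM, robust quasi-likelihood test, Benjamini-Hochberg over all genes tested, threshold 0.1) in R 4.3.3. The fits were also run on simulated counts, and the outcome is not reported here. P-values treat libraries of different steers as replicates. Library totals of 9097695 to 63621304 reads set the precision of each level. Alternatives were TMM, other pseudocounts and filters, DESeq2 1.42.0, libraries left out, and differences within steers; differences relative to the median of all genes, and DESeq2 without the steer of both breed labels, were added after the data were seen. Genes were to be named when among the 25 largest scores, in a pathway list, called in a test, at the margin of the choice or extreme in spread. Since the files pair few identifiers with symbols, the 7 genes with symbols and those called were described instead, and the rest by rank. Sequences and coordinates were not used here.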

Additional observations from a re-analysis of the deposited data

Results flagged for a closer look

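In groups of 4 to 10 libraries, 18 values lay further from their neighbours than Dixon's 95% limit allows, out of 130 group and gene combinations for the member mean and the 12 genes described, all of them a highest value on the linear CPM scale. Chance alone gives about 1 in 20 if the values are normally distributed, which was not checked for linear CPM. For ENSBTAG00000017042 these were 233 CPM in HF H1 high RFI, 140 CPM in HF H1 low RFI and 149 CPM in HF grass low RFI. For ENSBTAG00000008353 they were 43.0 CPM in CH H2 high RFI and 42.0 CPM in HF grass low RFI. The 1 value of HIST1H2BD was 23.0 CPM in HF H2 high RFI, and that of STRIP2 was 27.3 CPM in HF H1 high RFI. One CH H2 high RFI library gave the highest KIF23, at 48.5 CPM, and the highest SGPL1, at 313 CPM. SGPL1 also reached 326 CPM in HF H1 low RFI, and S100A14 reached 58.5 CPM in CH H2 low RFI. ENSBTAG00000035064 reached 3.66 CPM on CH grass, 21.4 CPM in CH H2 high RFI and 22.1 CPM in HF grass low RFI. One HF H1 low RFI library gave both 7.41 CPM of ENSBTAG00000003943 and 41.9 CPM of ENSBTAG00000017830. ENSBTAG00000003943 reached 7.48 CPM in HF grass high RFI, and ENSBTAG00000017830 reached 56.7 CPM in CH H2 high RFI.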

How the results depend on the processing

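Of the 100 genes, 28 would be chosen under TMM scaling, 65 with a mean CPM of at least 1, 51 with at least 20 (which only 51 of them reach) and 56 with medians in place of means. Between 69 and 97 would be chosen with a pseudocount of 2, without the limit between H1 and H2, with RFI groups weighted equally or without the steer of both breed labels, and 75 to 89 when each CH grass library was left out in turn. Within steers, as a replicate block, 96 of 100 had a median difference over the 10 pairs below 0 by library total. These pairs also entered the choice, and the same count over all genes was not made. In the median pair 56.5% of all 8987 genes were lower on grass. No test was paired, because every test lay within a single diet. The STRIP2 score turned to -0.052 under TMM.

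Without the steer of both breed labels 0 members were called between breeds in H1 by edgeR, and 4 by DESeq2. DESeq2 called 3 members for RFI in CH H1, 4 in CH ZG and 2 in H1 with the breeds joined, where edgeR called 0; without that steer it called 1 in CH H1 and 2 in H1 with the breeds joined. By edgeR 0 members were called for RFI on CH grass, for RFI in HF H2 or between breeds on grass with all libraries. This stayed 0 when any CH grass library, or any HF low RFI library in H2, was left out. DESeq2 was not refitted without single CH grass libraries, so its 4 calls in CH ZG were not checked in this way. The number of members with an unadjusted P below 0.05 was less steady, as was the share of all genes, given in brackets. For RFI on CH grass the number was 14 (13.5%), but 19 (17.9%) without low RFI replicate 1. It was 7 (10.6%) without low RFI replicate 2 and 9 (5.84%) without high RFI replicate 3. For RFI in HF H2 it was 9 (3.47%), but 4 (2.02%), 15 (5.45%) and 5 (2.91%) without low RFI replicates 2, 3 and 4. Between breeds on grass it was 8 (2.82%), but 13 (4.18%) without CH high RFI replicate 3. Other settings changed no count of members past the adjusted threshold by more than 1.5 times. Without a filter on low counts, ENSBTAG00000035064 missed the threshold between breeds in H1 (-1.69, edgeR adjusted P = 0.109). CH grass rests on 6 libraries, and differences of the size of most scores were within the spread between libraries.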
